A study of Mus musculus with 36 samples.

Results

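The comparison described here sets mice on a restricted high-fat diet (HF-DR) against mice that ate the same diet ad libitum (HF-AL), in the epididymal fat pad, a white adipose depot of the male abdomen. It covers the 24 arrays whose labels name HF-DR (12) or HF-AL (12), of 36 arrays in all. The remaining 12 arrays come from mice killed after adaptation (t0). All mice were adult male C57BL/6J on a purified diet in which fat supplied 30% of the energy, given ad libitum for 3 weeks of adaptation. HF-AL mice then stayed on this regime for 12 weeks. HF-DR mice received the diet for 12 weeks on a restricted basis of 70 energy percent, with vitamins and minerals added so that their intake of these equalled that of HF-AL. Each array compared the Cy5-labelled RNA of 1 mouse with a common Cy3-labelled pool of all samples, so every level below is a log2 ratio to that pool, and every difference is HF-DR minus HF-AL with n = 12 mice in each group. The hour of killing and the time since the last meal are not given in the sources used here, and their part in the differences was not tested.

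White fat takes up and releases fatty acids under the control of insulin, catecholamines and many locally made mediators, which act on receptors of adipocytes and of the fibroblasts, vessels and immune cells around them. The tissue also secretes hormones, makes amino acids such as serine and glutamine, handles retinoids, steroids, iron and metals, and remodels its cell skeleton as fat cells grow or shrink. Restricting energy intake shrinks the depot. The genes below are ordered by these roles, from receptors and secreted signals through transcription factors to enzymes, transporters and structural proteins.

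The share of probes with Cy5 signal well above background ran from 44.8% to 69.7% over the 24 arrays, and 12 arrays a group set the precision of the differences. All 15 mature adipocyte markers tested, Adipoq, Plin1 and Lipe among them, were well above background on all 24 arrays. Their mean log2 ratio ran from -1.38 to -0.17 (median -0.27) in HF-DR and from -0.14 to 0.51 (median 0.22) in HF-AL, and 10 of 15 fell. The fibroblast list fell for 12 of 14 genes, with list means from -1.31 to -0.70 in HF-DR and from 0.10 to 0.36 in HF-AL, and the macrophage list for 13 of 15, with means from -1.27 to -0.26 and from -0.22 to 0.27. In RNA from whole tissue, fewer cells of a type and less RNA per cell cannot be told apart. Arrays HF-DR 7, 8 and 9 carried transcripts of the epididymis and seminal vesicle (list means -0.32, 5.48 and 5.03, against -4.89 to -3.50 on the other HF-DR arrays). HF-DR 8 also gave the lowest HF-DR mean of the adipocyte, fibroblast and macrophage lists, and the part of tract RNA in this was not tested. HF-AL 5, 7 and 9 carried testis and sperm transcripts (1.00, 2.25 and 1.67, against -0.95 to -0.75 on the other HF-AL arrays and -0.56 to 0.05 in HF-DR). Where leaving out these 6 arrays, or the slide as a block, changes the call of a named gene, or moves one that passed by over 1.5 times, that value is given. The 24 arrays lay on 21 slides, of which 3 held both groups.

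Most of the measured transcriptome differed between the groups. Of 16515 genes tested, 10691 (64.7%) passed an adjusted p of 0.05 in limma, 4761 (28.8%) higher and 5930 (35.9%) lower in HF-DR, and the median absolute log2 difference was 0.25. A difference of at least 2-fold was found for 918 genes (5.56%), 489 (2.96%) up and 429 (2.60%) down. The 12 arrays of each group did not overlap for 2380 genes (14.4%), with HF-DR higher for 1027 (6.22%) and lower for 1353 (8.19%). In the authors' series matrix the balance turned, with 5202 genes up and 4644 down of 15345, and a median of 0.02 in place of -0.04. Without the 6 arrays with male tract transcripts, 926 genes differed at least 2-fold, 808 of them shared, and with the slide as a block 901, 774 of them shared. In what follows, a number after a gene is its log2 difference, with the standard error (SE) of the fit, and "rose" or "fell" means that it passed the adjusted p of 0.05. Since 28.8% of all genes rose and 35.9% fell, the counts for a group of genes are to be read against those shares.

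The rankings below leave out a set of lipid, matrix, respiratory, endocrine, immune and cell marker genes, and transcripts without a current symbol. Of those left out, 23 rose by at least the smallest rise named here (2.60), and 18 fell by at least the smallest fall (-2.09), Ighm (-2.71), Gsn (-2.12) and Plin4 (-2.11) among them. Of the remaining genes, the largest rises were in enzymes, signalling proteins and secreted factors of several kinds. Pgbd5, a gene derived from a transposase, has its probe on chr8 from 127255251 to 127255192 on the reverse strand (mm8). Its log2 ratio ran from 1.18 to 3.37 (median 2.39) in HF-DR and from -2.12 to -0.81 (median -1.59) in HF-AL, a 14.1-fold difference (3.82 ± 0.17 SE, adjusted p = 5.3e-20), and it was well above background on 10 of 12 HF-AL arrays. Aspg, an asparaginase that splits asparagine into aspartate and ammonia, ran from 1.03 to 2.97 (median 2.09) in HF-DR and from -1.66 to -1.15 (median -1.38) in HF-AL, an 11.3-fold difference (3.50 ± 0.15 SE, adjusted p = 1.8e-20). A dimmer second probe of Aspg differed by 0.60.

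Rdh11, which reduces retinal to retinol, ran from 1.33 to 2.65 (median 2.14) in HF-DR and from -1.5 to -0.39 (median -1.09) in HF-AL, an 8.45-fold rise (3.08 ± 0.12 SE, adjusted p = 2.8e-21), and its second probe rose by 2.31. Fgf21, the hormone that raises fuel use and that fat and liver release, was 7.18-fold higher (2.84 ± 0.16 SE, adjusted p = 2.2e-17). Its log2 ratio ran from 0.36 to 2.80 (median 1.81) in HF-DR and from -1.31 to -0.57 (median -1.06) in HF-AL, and its second probe differed by 1.32. The lowest HF-DR array of Fgf21 still lay above the highest HF-AL array. Gys2, the glycogen synthase known from liver, ran from 0.15 to 2.34 (median 1.79) in HF-DR and from -1.90 to -0.17 (median -1.07) in HF-AL (2.73 ± 0.21 SE, adjusted p = 6.3e-14). Egln3, a prolyl hydroxylase that marks hypoxia-inducible factors for decay, ran from 0.97 to 2.45 (median 2.09) in HF-DR and from -1.19 to -0.56 (median -0.76) in HF-AL (2.72 ± 0.12 SE, adjusted p = 3.2e-20). Adcy10, the soluble adenylyl cyclase that bicarbonate activates, rose by 2.91 ± 0.14 SE, Recql4, a DNA helicase, by 2.98 ± 0.13 SE, and Chchd10, a protein of the mitochondrial intermembrane space, by 2.95 ± 0.24 SE.

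Traf4, an adaptor of TNF receptor family signalling, rose by 2.60 ± 0.11 SE, and Ncan, a proteoglycan known from brain, by 2.68 ± 0.25 SE. Slc9a2, a sodium-proton exchanger, rose by 3.37 ± 0.33 SE, with 2 of its HF-DR arrays, numbers 8 and 9, far above the rest. These are arrays with seminal vesicle and epididymis transcripts, and without the 6 tract arrays its difference was 2.98. Mpzl2, an adhesion protein of epithelia, rose by 2.79 ± 0.23 SE (second probe 1.11), and the actin-binding Shroom1 by 2.78 ± 0.26 SE. Both had their highest HF-AL values on the arrays with testis transcripts, and without the 6 arrays the differences were 3.25 and 3.09. For these 14 genes the groups did not overlap, the difference was above 0 within every one of the 3 slides shared by the groups (1.34 to 4.50), and the t0 mean lay within the HF-AL range.

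**Figure D1:**
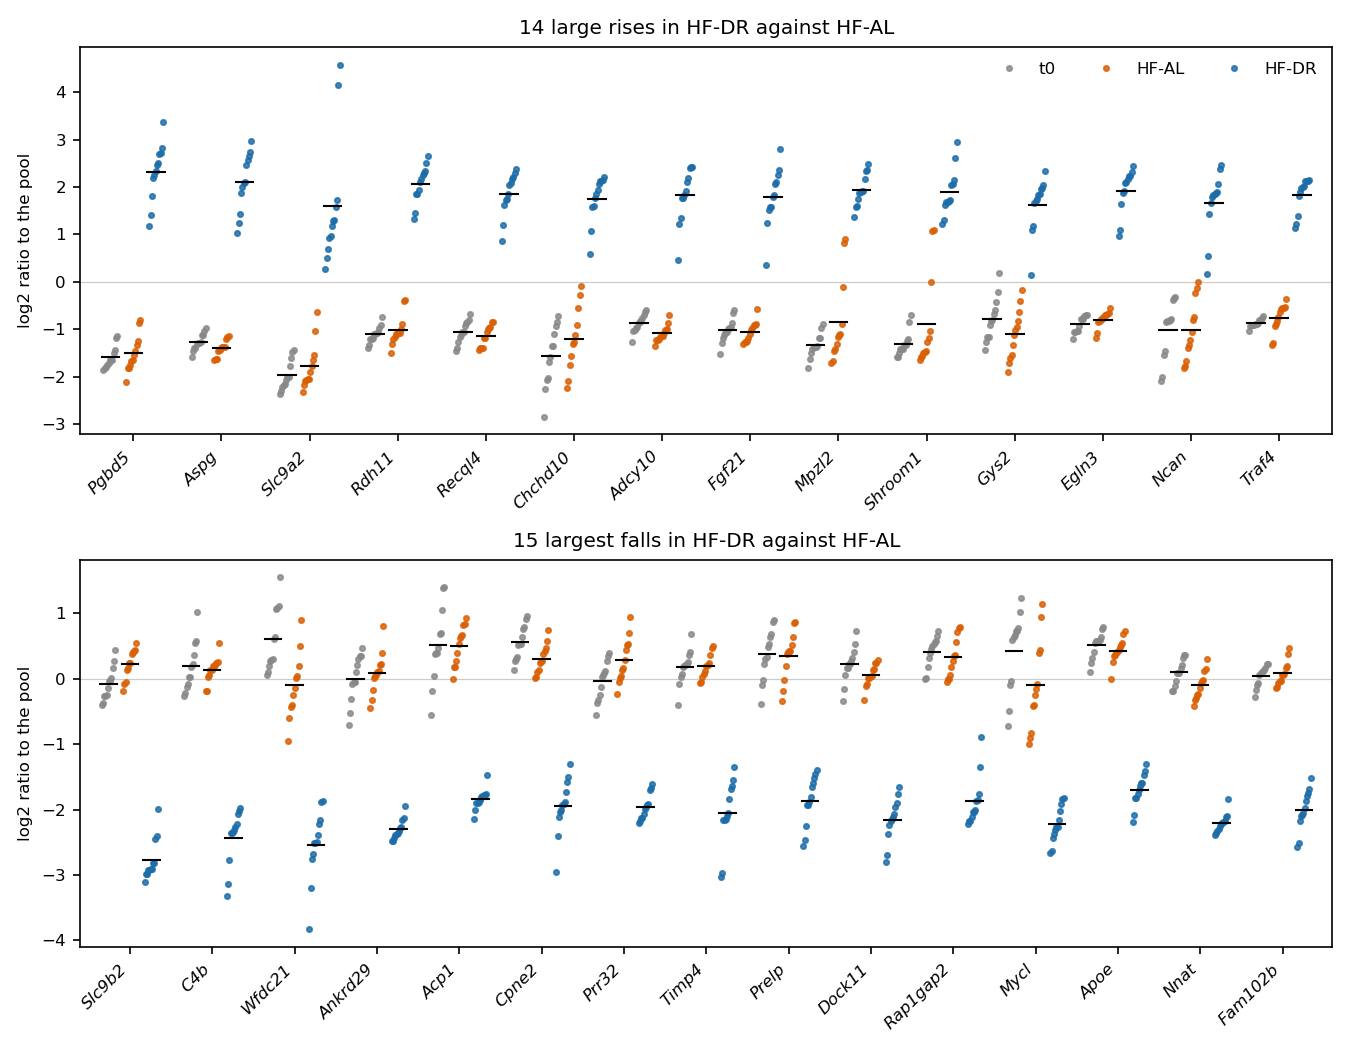
Log2 ratio to the pool of every array for 14 large rises (top) and 15 large falls (bottom), ranked by size outside the genes left out of the ranking. Grey, orange and blue points are the 12 mice each of t0, HF-AL and HF-DR, and black bars are group means; in every gene the HF-DR points lie apart from those of HF-AL, and the t0 mean lies within the HF-AL range.

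Upstream sequences are printed for Fgf21, Rdh11 and Aspg, since among the 9 of these 14 genes with a promoter in the reference table these held E-box or D-box motifs. An E-box (CACGTG) is the site that clock, MYC and carbohydrate response factors can bind, a D-box core (TTANGTAA) that of DBP, TEF, HLF and NFIL3, and the ATF4 element (TGATGNAAT) that of the amino acid response. All were searched on both strands, and the matches marked do not overlap one another. Each sequence is the 250 bases before a RefSeq transcription start (GRCm38.p6, reverse strand for Fgf21 and Rdh11, forward for Aspg), with the motifs in capitals. In Fgf21 (chr7:45615491-45615740) these are an ATF4 element 140 bases and an E-box 50 bases before the start, in 1 of the Rdh11 promoters (chr12:79190962-79191211) E-boxes at 230 and 182 bases, and in Aspg (chr12:112106433-112106682) a D-box core at 86 bases.
Fgf21: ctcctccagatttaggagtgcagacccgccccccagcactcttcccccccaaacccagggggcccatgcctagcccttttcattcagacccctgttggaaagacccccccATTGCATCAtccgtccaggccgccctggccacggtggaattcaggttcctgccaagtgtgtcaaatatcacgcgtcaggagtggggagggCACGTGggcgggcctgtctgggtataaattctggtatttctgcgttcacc
Rdh11: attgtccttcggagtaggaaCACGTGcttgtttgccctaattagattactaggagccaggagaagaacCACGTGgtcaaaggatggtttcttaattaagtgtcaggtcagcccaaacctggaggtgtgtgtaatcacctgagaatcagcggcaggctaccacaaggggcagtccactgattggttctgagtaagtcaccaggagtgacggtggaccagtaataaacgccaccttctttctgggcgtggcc
Aspg: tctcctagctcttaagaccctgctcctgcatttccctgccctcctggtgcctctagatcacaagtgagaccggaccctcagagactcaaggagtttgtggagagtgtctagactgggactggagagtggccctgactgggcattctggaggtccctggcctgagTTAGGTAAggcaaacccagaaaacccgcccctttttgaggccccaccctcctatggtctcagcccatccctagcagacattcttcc
A match describes the letters in these windows and not binding of a factor. In windows from 250 bases before to 50 after the start, an E-box was found for 57 of 322 genes up at least 2-fold that had a window (17.7%), for 27 of 301 down at least 2-fold (8.97%), and for 1242 of 10912 genes tested (11.4%). It stood in 7.15% of all 32851 windows of the table. That share is per window, whereas a gene counted if any of its windows held the motif. A D-box core was found for 3.42% (11 genes), 0.664% (2 genes) and 1.93% of the same sets of genes (2.32% of all windows). The interferon response core went the other way, with 1.55% of genes up (5 genes), 6.31% of genes down (19 genes) and 3.75% of all genes tested (3.44% of all windows). The NF-Y box (CCAAT) stood at 50.6%, 38.9% and 42.6% (37.4% of all windows). The ATF4 element marked in Fgf21 was found for 2 of 322 genes up (0.621%), 3 of 301 down (0.997%) and 66 of 10912 tested (0.605%). It stood in 0.965% of all windows. The shares were not tested.

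**Figure D2:**
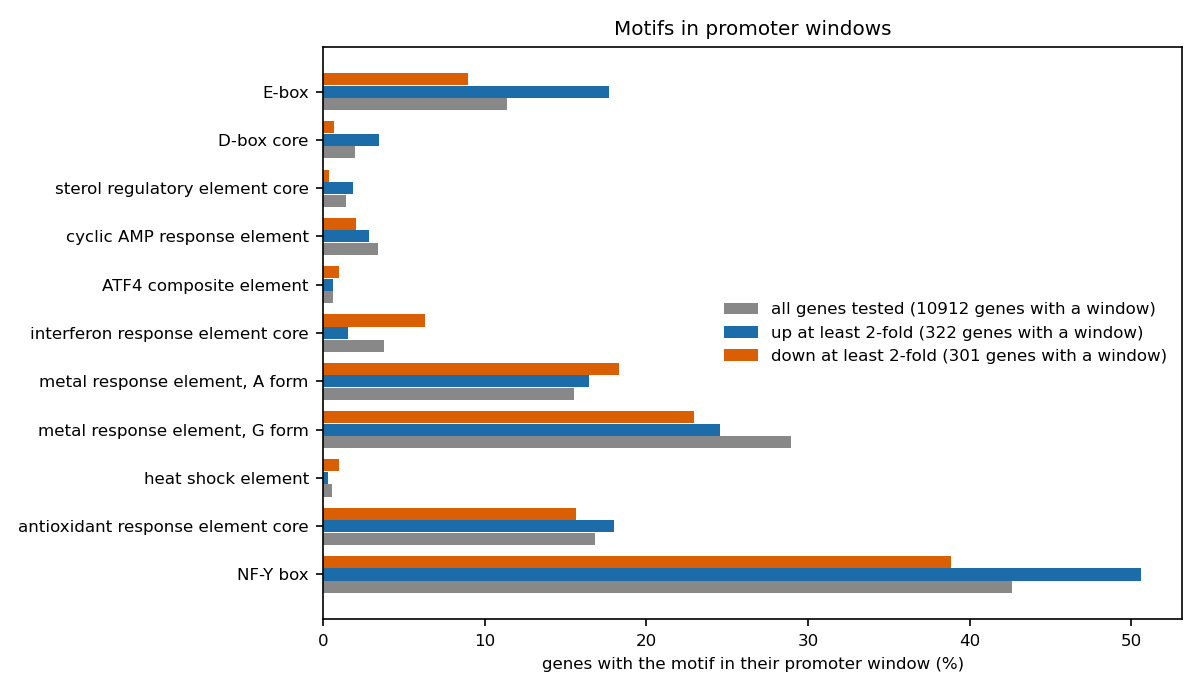
Percent of genes with each motif on either strand in a window from 250 bases before to 50 after the start, for genes up at least 2-fold (blue), down at least 2-fold (orange) and all genes tested (grey). The E-box bar of genes up reaches 17.7% against 11.4% for all genes tested, and the interferon core bar of genes down 6.31% against 3.75%.

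Among the genes ranked, the largest falls included a proton exchanger, complement and matrix-bound proteins and small GTPase regulators, beside genes of other kinds. Slc9b2, a sodium-proton exchanger, led them. Its probe lies on chr3 from 135279839 to 135279898 (mm8), and its log2 ratio ran from -3.11 to -1.99 (median -2.91) in HF-DR and from -0.19 to 0.54 (median 0.24) in HF-AL, a 7.96-fold lower level (-2.99 ± 0.11 SE, adjusted p = 1.4e-22). It was well above background on 10 of 12 HF-DR arrays. C4b, complement component 4, ran from -3.32 to -1.97 (median -2.33) in HF-DR and from -0.19 to 0.55 (median 0.17) in HF-AL (-2.57 ± 0.14 SE, adjusted p = 5.7e-18), and the groups did not overlap. Apoe, the lipid-carrying protein that macrophages and fat cells secrete, was 4.37-fold lower, at -1.70 ± 0.26 in HF-DR and 0.43 ± 0.19 in HF-AL (SD, n = 12). Timp4, an inhibitor of metalloproteinases, ran from -3.02 to -1.34 (median -2.07) in HF-DR and from -0.07 to 0.50 (median 0.19) in HF-AL (-2.24 ± 0.14 SE, adjusted p = 1.2e-15). Prelp, a leucine-rich matrix proteoglycan, differed by -2.22 on its brightest probe and by -0.38 on its second, and Nnat, an imprinted gene of small membrane proteins, differed by -2.11.

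Regulators of small GTPases were among these falls. Dock11, which activates Cdc42, ran from -2.80 to -1.66 (median -2.13) in HF-DR and from -0.33 to 0.28 (median 0.03) in HF-AL (-2.21 ± 0.11 SE, adjusted p = 6.0e-19), and its other 2 probes differed by -1.68 and -0.95. Rap1gap2, which switches off Rap1, differed by -2.21 ± 0.13 SE, and by -1.08 on its second probe. Mycl, a MYC family transcription factor, ran from -2.67 to -1.83 (median -2.26) in HF-DR and from -1.0 to 1.15 (median -0.20) in HF-AL (-2.13 ± 0.22 SE, adjusted p = 1.2e-10). The remaining large falls were Wfdc21 (-2.44), a secreted protein with a WAP domain, Ankrd29 (-2.39), Cpne2 (-2.25), a calcium-dependent lipid binder, Prr32 (-2.25) and Fam102b (-2.09). Acp1, the low molecular weight tyrosine phosphatase, had -2.35 at its brightest probe, while its other 2 probes differed by 0.10 and 0.39, so the gene has no single direction here. All 15 had HF-DR arrays below every HF-AL array, and on the 3 slides with both groups the differences lay between -3.58 and -1.26.

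Receptors for hormones, metabolites and lipid mediators that couple to G proteins fell more often than they rose. Of 68 tested, 35 fell, 9 rose and 24 did not pass, with a median log2 difference of -0.23 (all genes -0.04). Ffar2, the receptor for short-chain fatty acids, ran from -2.65 to -1.32 (median -1.92) in HF-DR and from -0.33 to 0.73 (median -0.04) in HF-AL (-1.98 ± 0.12 SE, adjusted p = 2.6e-16), and every HF-DR array lay below every HF-AL array. Sucnr1, the succinate receptor, was 3.48-fold lower, from -2.78 to -0.89 (median -1.58) in HF-DR and from -0.30 to 0.52 (median 0.10) in HF-AL. Ffar4, the long-chain fatty acid receptor, fell (-0.96) and did not overlap either. Gipr, the receptor for the incretin GIP, fell (-0.70). Its second probe, well above background on 15 of 24 arrays, differed by -0.04. Hcar1, the lactate receptor, differed by -0.30 ± 0.13 SE (adjusted p = 0.039, and 0.2 with the slide as a block), and Cnr1, the cannabinoid receptor, differed by -0.04 ± 0.07 SE (adjusted p = 0.56), with overlapping groups in both. The call of Hcar1 was also lost without the 6 tract arrays (-0.29, adjusted p = 0.057). The probe of Cnr1 was well above background on 14 of 24 arrays, so its level lies near the detection limit.

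Some receptors went the opposite way. Pth1r, the parathyroid hormone receptor, ran from 0.19 to 1.82 (median 1.41) in HF-DR and from -1.35 to -0.14 (median -0.83) in HF-AL, a 4.37-fold rise (2.13 ± 0.13 SE, adjusted p = 2.6e-16). Ptger3, a prostaglandin E2 receptor that lowers cyclic AMP, ran from 0.41 to 1.78 (median 1.5) in HF-DR and from -1.25 to -0.04 (median -0.37) in HF-AL (1.86 ± 0.16 SE, adjusted p = 7.7e-13), and P2ry2, a nucleotide receptor, rose by 1.23 ± 0.10 SE. For each of these the groups lay apart. Adora1, the adenosine receptor that restrains lipolysis, rose by 0.83 ± 0.12 SE, with overlap between groups.

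Genes of the cyclic AMP and GMP pathways behind these receptors fell for 27 of 53 genes and rose for 13. Falls were seen for Akap12, a scaffold of protein kinase A (-1.60 ± 0.10 SE, adjusted p = 7.9e-16), Creb3l2, a membrane-bound transcription factor of the secretory pathway (-1.20), and Adcy7, an adenylyl cyclase (-1.14), and a rise for Prkaca, the catalytic kinase subunit (0.81). Pde3b, the phosphodiesterase that insulin activates in fat cells, did not pass (-0.12 ± 0.12 SE, adjusted p = 0.38). Among the 14 RGS proteins, which shorten G protein signals, Rgs16 (1.49 ± 0.12 SE, adjusted p = 4.6e-13) and Rgs2 (1.43) rose, while Rgs5 fell (-1.12). Rgs5 is also on the list of smooth muscle and pericyte markers, of which 2 of 10 rose and 2 fell, with a median of 0.20 (-0.40 with the slide as a block and -0.17 without the 6 tract arrays). The RGS list counted 3 rises and 8 falls.

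Growth factor signals fell for 20 and rose for 9 of 47 genes, 61.7% of the list against 64.7% of all genes. Beside Fgf21, Nrg4, a ligand of the ErbB4 receptor that fat cells secrete, ran from 0.35 to 1.55 (median 1.26) in HF-DR and from -1.21 to -0.27 (median -0.61) in HF-AL, a 3.48-fold rise (1.80 ± 0.12 SE, adjusted p = 2.2e-15). Ntrk2, the receptor for brain-derived neurotrophic factor, ran from -2.70 to -1.16 (median -1.62) in HF-DR and from -0.18 to 0.39 (median 0.13) in HF-AL (-1.88 ± 0.12 SE, adjusted p = 1.1e-15), and its other 2 probes gave -1.70 and -0.34. Egfr, the receptor for epidermal growth factor, differed by -1.35 on its brightest probe, while its other 4 probes gave -1.11, -0.94, -0.95 and -0.47. Its ligand Btc fell (-1.26), but was well above background on only 5 of 12 HF-DR arrays. Of 56 genes of the Notch, Hedgehog and Hippo pathways 31 fell and 7 rose (median -0.27), among them Vgll3, a partner of TEAD factors, at -1.46, and Smo, the Hedgehog signal transducer, at -0.99. The second probe of Smo differed by -0.04. Of 54 guidance cues and receptors 28 fell, with Slit3, a ligand of Robo receptors, at -1.43, and 5 rose, with Unc5a, a netrin receptor, at 1.60.

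**Figure D3:**
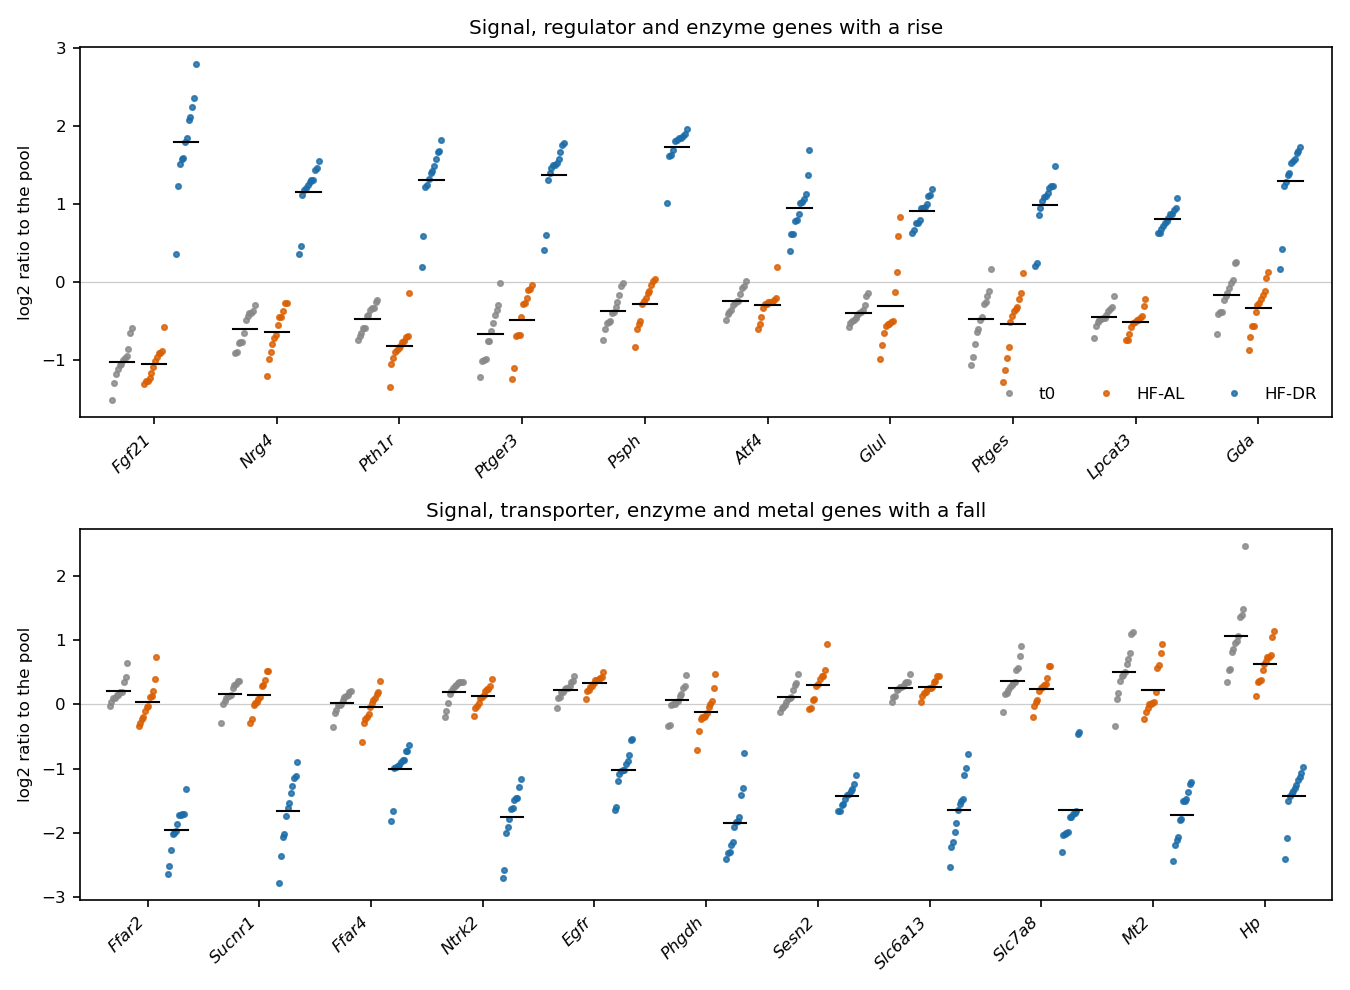
Log2 ratio to the pool of every array for 10 genes with a rise (top) and 11 with a fall (bottom) that the text describes, with t0 in grey, HF-AL in orange, HF-DR in blue and black bars at group means. The HF-DR points stand above those of HF-AL in the top panel, except for overlap in Glul, and below them in the bottom panel.

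Receptors of interleukins, TNF and Toll-like ligands fell for 37 of 76 genes and rose for 7, beside the macrophage markers above. That is 57.9% of the list against 64.7% of all genes. Il1rl1, the receptor for interleukin 33, fell (-1.14 ± 0.07 SE) and Ifngr1, which binds interferon gamma, fell (-1.08 ± 0.09 SE), with no overlap between groups in either. Tnfrsf25, a death domain receptor, fell (-1.16). Its second probe, well above background on 13 of 24 arrays, differed by -0.06.

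Of 34 nuclear receptors 8 rose and 11 fell, 55.9% of the list against 64.7% of all genes. Esrra, which drives mitochondrial genes, rose by 0.88 ± 0.10 SE. The glucocorticoid receptor Nr3c1 fell (-0.70 ± 0.08 SE) on its brightest probe, with groups that did not overlap. Its other probes gave -0.47, -0.32 and -0.38. The thyroid hormone receptor Thra fell (-0.80), with -0.26 on its second probe, and the clock repressor Nr1d2 fell (-0.91). Esr1, the oestrogen receptor, rose by 0.55 ± 0.18 SE (adjusted p = 0.0072), by 1.02 without the 6 tract arrays and by 0.87 with the slide as a block.

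Kruppel-like factors fell for 9 of 15 genes, with Klf14 (well above background on 9 of 12 HF-DR arrays) at -1.30, and for 5 with the slide as a block. Among immediate early genes 14 of 48 rose and 17 fell. Maff (1.36) and the phosphatase gene Dusp4 (1.33) rose, while Egr2 (-1.05), Btg1 (-1.02) and Jun (-1.01) fell. For p53 targets and cell cycle inhibitors the split was 11 up and 20 down of 42, with Plk3, a stress kinase, at 1.71, Cdkn1a (p21) at 1.08, Sesn3 at -1.19 and Ccng2 at -0.94. DNA and histone modifying enzymes fell for 40 and rose for 17 of 79, Prmt2, an arginine methyltransferase, falling (-1.05). Of 24 Hox genes 5 rose and 5 fell (10 and 3 without the 6 tract arrays), and Hoxa4 rose by 0.93.

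Amino acid synthesis genes rose at the last step of the serine pathway and fell at its first. Psph, which forms serine from phosphoserine, ran from 1.0 to 1.97 (median 1.82) in HF-DR and from -0.84 to 0.04 (median -0.22) in HF-AL (2.02 ± 0.10 SE, adjusted p = 3.0e-18). Phgdh, which takes the first step from glycolysis, ran from -2.40 to -0.76 (median -1.87) in HF-DR and from -0.71 to 0.47 (median -0.16) in HF-AL (-1.73 ± 0.14 SE, adjusted p = 3.6e-13). For both genes the groups did not overlap. Atf4, the transcription factor of the amino acid response, rose by 1.24 ± 0.10 SE. Glul, glutamine synthetase, rose by 1.21 ± 0.14 SE, with HF-AL values of 0.12, 0.59 and 0.83 on the arrays with testis transcripts, and Sesn2, a sensor of leucine that ATF4 can induce, fell (-1.73 ± 0.09 SE). Of 41 genes on this list 16 rose and 10 fell, or 16 and 17 without the 6 tract arrays.

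Cytosolic aminoacyl-tRNA synthetases, which load amino acids on tRNA for translation, rose for 15 of 22 genes and none fell, with a median of 0.32. Yars rose by 0.82 ± 0.05 SE, Iars by 0.77 ± 0.10 SE and Farsb by 0.70 ± 0.06 SE, each without overlap. Without the 6 tract arrays 13 rose and 3 fell (median 0.16). Amino acid transporters rose for 10 and fell for 14 of 38, 63.2% of the list against 64.7% of all genes. Slc36a2, a proton-coupled carrier of small amino acids, rose by 1.73 ± 0.12 SE, adjusted p = 1.4e-14, while Slc6a13, a GABA carrier, fell (-1.91 ± 0.13 SE) and Slc7a8, a carrier of neutral amino acids, fell (-1.89 ± 0.16 SE). Slc7a5, a carrier for large neutral amino acids, rose by 0.76 ± 0.28 SE (adjusted p = 0.016), but by 0.49 without the 6 tract arrays and by 0.18 with the slide as a block (adjusted p = 0.42). In creatine and polyamine metabolism 9 of 23 rose and 7 fell. Gamt, the last enzyme of creatine synthesis, fell (-1.44 ± 0.09 SE), and Amd1, which supplies the polyamine pathway, rose by 0.89 ± 0.11 SE.

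Enzymes of retinoids, steroids and prostaglandins changed in both directions. Of 24 retinoid genes 11 rose and 10 fell, 87.5% of the list against 64.7% of all genes. Beside Rdh11, Dhrs7, a short-chain dehydrogenase, rose by 1.28 ± 0.10 SE, while Dhrs3, which also acts on retinal, fell (-0.81 ± 0.10 SE), with no overlap in either. Rbp4, the retinol carrier that fat secretes, differed by 0.31 ± 0.15 SE (adjusted p = 0.081), but by 0.63 with the slide as a block (adjusted p = 3.1e-04) and by 0.46 without the 6 tract arrays (adjusted p = 1.1e-06). For steroid hormones 9 rose and 8 fell of 27: Hsd17b12, which reduces oestrone and long-chain acyl groups, rose by 1.60 ± 0.13 SE, and Sult1e1, which inactivates oestrogens by sulfation, fell (-1.53 ± 0.18 SE). Ptges, prostaglandin E synthase, rose by 1.52 ± 0.15 SE, adjusted p = 9.2e-11, and ran from 0.20 to 1.48 (median 1.10) in HF-DR and from -1.29 to 0.12 (median -0.41) in HF-AL, without overlap. Prxl2b, which makes prostaglandin F2 alpha, fell (-1.42 ± 0.12 SE). The list had 12 rises and 11 falls among 37.

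Of 69 cytochromes P450, carboxylesterases and aldehyde dehydrogenases, which oxidise or split drugs, lipids and aldehydes, 26 rose and 19 fell. Aldh4a1, a mitochondrial enzyme of proline breakdown, rose by 1.28 ± 0.09 SE, and Aldh1a7 and Aldh3b2 rose by 1.42 and 1.30. Aldh3b1 fell (-1.27 ± 0.08 SE) and Cyp4v3, a fatty acid hydroxylase, fell (-1.32 ± 0.11 SE).

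Of 40 phospholipid enzymes 16 rose and 13 fell. Lpcat3, which places polyunsaturated fatty acids in phospholipids, ran from 0.63 to 1.08 (median 0.80) in HF-DR and from -0.75 to -0.22 (median -0.50) in HF-AL (1.33 ± 0.06 SE, adjusted p = 4.2e-20), and the groups did not overlap. Pcyt2, which makes the head group donor of phosphatidylethanolamine, rose by 1.12 ± 0.10 SE, and Enpp2, the secreted enzyme autotaxin, fell (-0.64 ± 0.09 SE). Sphingolipid enzymes fell for 16 and rose for 6 of 33. Ormdl3, a brake on sphingolipid synthesis, rose by 0.76.

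Iron and haem genes rose for 22 of 51 and fell for 10. All 4 red blood cell markers tested rose too (median 0.67), with list means from -0.58 to 1.41 in HF-DR and from -1.21 to 0.37 in HF-AL, but none passed with the slide as a block, where the iron and haem list counted 20 rises and 11 falls. Their part in the counts was not tested. The iron carrier Trf rose by 0.89 and its receptor Tfrc by 0.54. Hp, haptoglobin, which binds free haemoglobin, ran from -2.41 to -0.98 (median -1.33) in HF-DR and from 0.13 to 1.15 (median 0.65) in HF-AL (-2.05 ± 0.17 SE, adjusted p = 9.1e-13), with every HF-DR array below every HF-AL array. The metallothionein Mt2 ran from -2.44 to -1.21 (median -1.64) in HF-DR and from -0.24 to 0.93 (median 0.02) in HF-AL (-1.95 ± 0.16 SE, adjusted p = 3.8e-13), again without overlap. Mt1 differed by -0.53 on its brightest probe, by 0.15 on its second, and by 0.28 in the authors' series matrix. Of 31 zinc and copper genes 12 rose and 9 fell, or 6 and 8 with the slide as a block.

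Purine and pyrimidine metabolism rose for 33 and fell for 16 of 67 genes. Gda, guanine deaminase, ran from 0.17 to 1.73 (median 1.46) in HF-DR and from -0.87 to 0.12 (median -0.29) in HF-AL (1.63 ± 0.15 SE, adjusted p = 3.9e-12). Uck2, a uridine kinase, rose by 1.0 ± 0.07 SE, and Prps1, which makes phosphoribosyl pyrophosphate, fell (-1.08 ± 0.08 SE). Of 36 hypoxia-inducible genes 14 rose and 14 fell. Beside Egln3, Pfkfb3, which raises glycolytic flux, fell (-1.75 ± 0.15 SE), with -1.02 and -0.72 on its other probes. Ndrg1, a stress protein, fell (-1.20 ± 0.12 SE).

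Water and ion channels fell for 21 of 49 genes and rose for 12. Kcne1l, a potassium channel subunit, ran from -2.11 to -1.55 (median -1.82) in HF-DR and from -0.52 to 0.75 (median 0.20) in HF-AL (-1.99 ± 0.12 SE, adjusted p = 5.1e-17). It was well above background on 7 of 12 HF-DR arrays, so its HF-DR level lies near the detection limit, as do those of Btc and, in HF-AL, Tuba8. The water channel Aqp1, found in endothelium, fell (-1.35), and the glycerol channel Aqp7 fell (-0.53 ± 0.12 SE), with overlapping groups. Among carriers of monocarboxylates, nucleosides and organic ions, with 12 up and 13 down of 43, Slco2b1, a carrier of organic anions, fell (-1.58 ± 0.10 SE) and Slc5a3, the carrier of myo-inositol, fell (-1.30 ± 0.11 SE).

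Peroxisome biogenesis rose for 16 of 23 genes and fell for 1 (median 0.33). Pex16 rose by 1.09 ± 0.10 SE and Pex19, both needed to form peroxisome membranes, by 1.01 ± 0.09 SE, and Pex11a, which divides peroxisomes, by 0.74 ± 0.12 SE. Chaperones and heat shock proteins rose for 20 of 49 and fell for 9. Bag1, a partner of Hsp70, rose by 0.94 ± 0.07 SE. Secretory pathway genes rose for 33 of 76 and fell for 14, with Sar1b, the GTPase of transport vesicles, at 0.83, but without the 6 tract arrays 27 rose and 26 fell. Of 53 SNARE and vesicle fusion genes 17 rose and 19 fell, 67.9% of the list against 64.7% of all genes. Lnpep, the aminopeptidase that travels with the glucose transporter Glut4, fell (-1.0 ± 0.08 SE), with -0.36 and -0.53 on its other probes. Stxbp3, which binds syntaxin 4, fell (-0.60 ± 0.05 SE). Autophagy genes rose for 14 and fell for 20 of 50, 68% of the list against 64.7% of all genes. Tmem41b, needed to form autophagosomes, rose by 1.12 ± 0.05 SE and Foxo1, which turns on autophagy genes, fell (-0.79 ± 0.09 SE).

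Of 88 actin cytoskeleton genes 49 fell and 8 rose (median -0.25), with Rhoc, a GTPase of cell contraction, at -1.03 ± 0.06 SE, adjusted p = 4.5e-16. Vim, the intermediate filament of mesenchymal cells, ran from -2.56 to -0.72 (median -1.36) in HF-DR and from 0.14 to 0.87 (median 0.42) in HF-AL (-1.84 ± 0.15 SE, adjusted p = 3.5e-13), and Tuba1a, an alpha-tubulin, ran from -2.25 to -0.41 (median -1.54) in HF-DR and from -0.19 to 1.38 (median 0.47) in HF-AL (-2.08 ± 0.22 SE, adjusted p = 2.6e-10). Tuba8, another alpha-tubulin, rose by 1.62 ± 0.10 SE, and was well above background on 6 of 12 HF-AL arrays. Among tubulins and filaments 15 rose and 21 fell of 52. Of 61 integrins, cadherins and junction genes 30 fell and 11 rose. Mcam, an adhesion protein of vessels, fell (-1.60 ± 0.10 SE) and the gap junction gene Gjc1 fell (-1.59 ± 0.09 SE), while Gja1, connexin 43, rose by 1.43 ± 0.34 SE, and by 2.32 without the 6 tract arrays, on which HF-AL values of Gja1 reached 2.47. Serpinf1, which fat cells secrete, fell (-1.45 ± 0.12 SE, adjusted p = 5.6e-13). Of 25 tetraspanins 10 fell and 2 rose, 48% of the list against 64.7% of all genes. Tspan15, which guides the protease ADAM10, rose by 1.23 ± 0.06 SE, adjusted p = 6.3e-20.

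**Figure D4:**
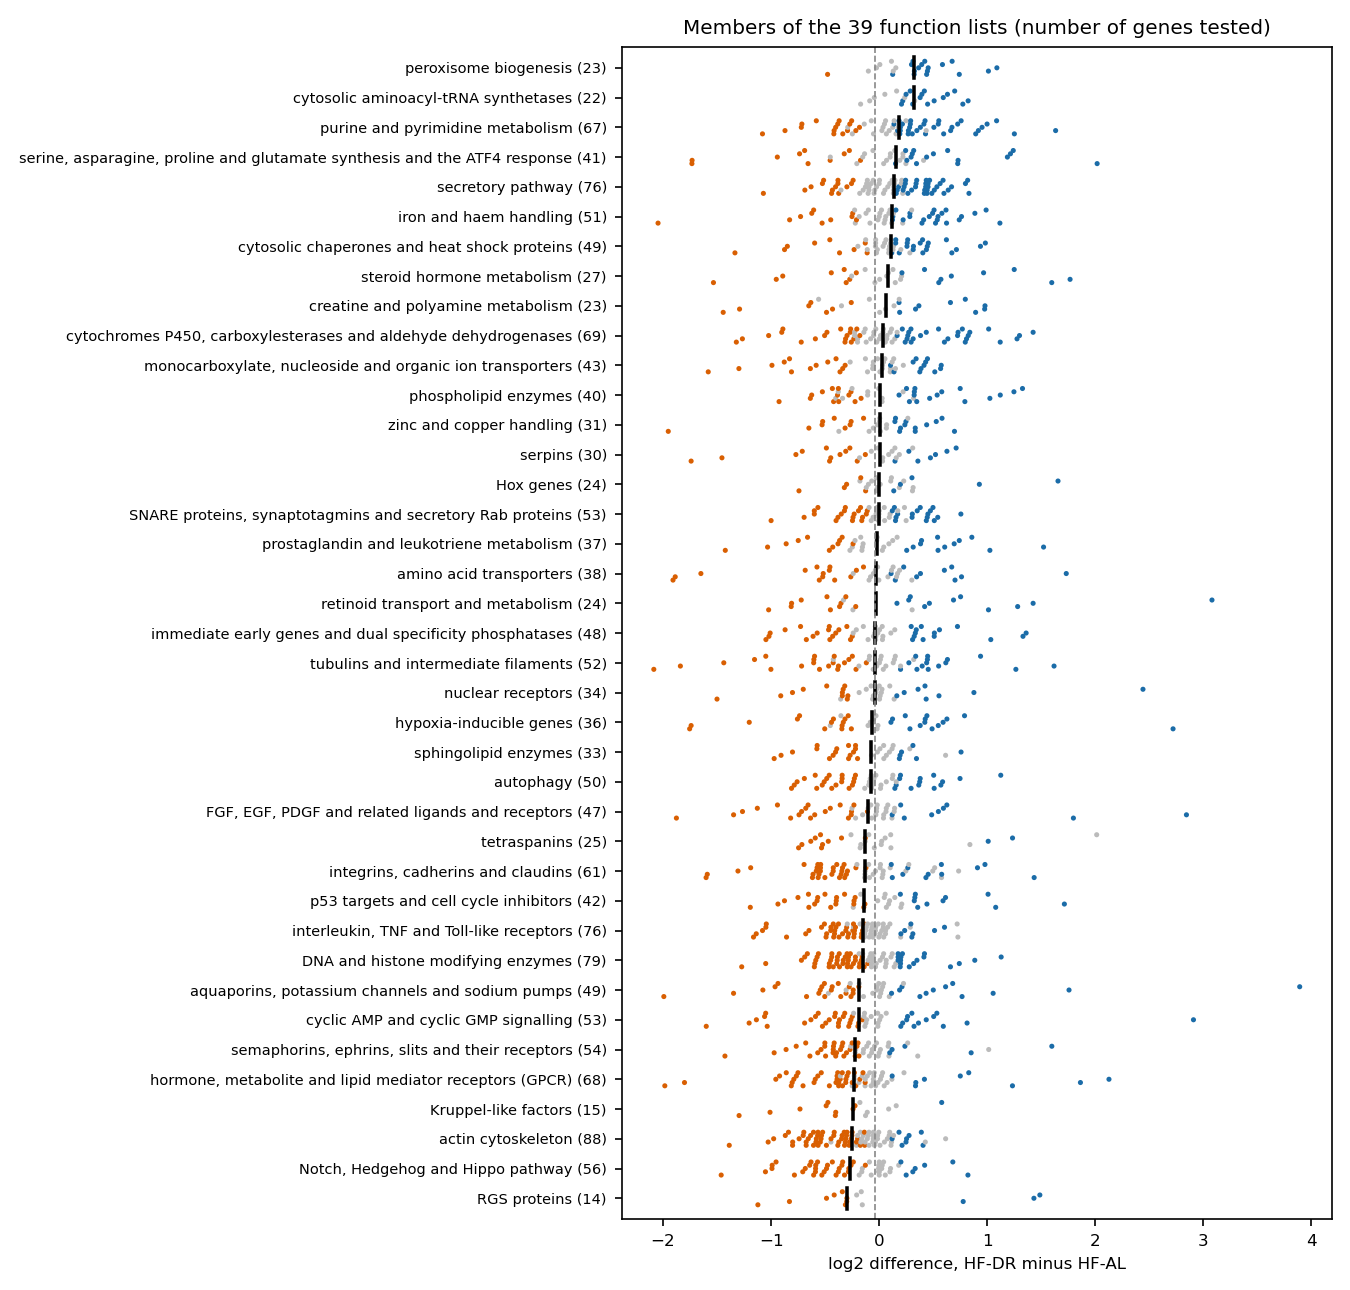
Log2 difference, HF-DR minus HF-AL, of every gene tested on the 39 function lists, ordered by the list median (black bar). Blue points rose, orange points fell and grey points did not pass an adjusted p of 0.05; the dashed line is the median of all genes tested (-0.04), and the list medians run from -0.30 for RGS proteins to 0.33 for peroxisome biogenesis.

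Probes of a gene can read different transcript ends. Of 5765 genes with at least 2 probes that passed, 6 had probes that differed at least 1.5-fold in opposite directions. Ppp1r14c, an inhibitor of protein phosphatase 1, had 1.06 ± 0.10 SE on a probe at chr10 from 6883117 to 6883058 and -1.04 at chr10 from 6881957 to 6881898 (mm8, reverse strand). The others were Kctd20, Tuba3a, Pacc1, Lgr4, a receptor for R-spondins, and Car5b, a mitochondrial carbonic anhydrase. For Lgr4 the differences were -0.60 for the brightest probe and -0.29 and 0.65 for the others.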

How the data were processed

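Two-colour Agilent arrays measured 36 mice, 12 in each of 3 groups, and 24 of them enter this comparison. The authors quantified the scans in Agilent Feature Extraction (9.5.3.1, from the submitters' processing notes). Per the labels, 500 ng of RNA per mouse was copied and labelled with both dyes, and each Cy5 product was hybridised against a pool of the Cy3 products. The intensity values used, as the authors deposited them, are mean spot signals and median local backgrounds on a linear scale, without normalization, per the file headers. The deposited series matrix holds log2 values of the authors (the sources used here do not say how they were made), with a median between 9.26 and 9.29 on each array; it was used as an alternative.

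Spots with a net signal under -50 in either channel (specks) were set missing, since they inflate the background spread. Normexp background correction (offset 50) and loess within arrays (4 iterations, control spots at weight 0) followed, in limma 3.58.1 with R 4.3.3 and the data.table package (1.17.8). Outlier spots were left out, and saturated spots kept. Probes well above background in Cy5 on at least 9 arrays of a group were kept (24724 of 41174), with 1 per gene, the brightest. One limma fit covered all 36 arrays, with Benjamini-Hochberg adjustment. The fit was also run on simulated noise, independent between genes and arrays, with known shifts in some genes. That setting held no slide effects or tract arrays, so it does not bear on them. Probes were named by accession (24375), symbol (6301), synonym (2391) or another accession (48) in RefSeq; 8059 kept the name in the file. Promoter windows are RefSeq's, GRCm38.p6, and probe coordinates are mm8.

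The members and lists were chosen with earlier results of these data known. Genes named are the 15 largest rises and falls outside the genes covered earlier, up to 3 rises and 3 falls of each list, a fixed set, markers and genes with opposite probes; some are not reported here. Every mouse was in Cy5, so dye effects of a probe drop out of group differences and were not measured. Alternatives were the background correction, normalization, filter, probe choice, blocks for slide and replicate number, arrays left out and the series matrix.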

Additional observations from a re-analysis of the deposited data

How the results depend on the processing

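The count of genes that differed at least 2-fold, 918, was 1600 with the authors' processed signals and 601 with arrays scaled to the same spread, and lay between 745 and 1043 under the other alternatives; the cause was not tested. The count of changed genes stayed within 1.5 times of 10691 throughout. Of the 918 genes, 917 of 918 kept their direction with processed signals, 901 of 902 measured in the series matrix, and 916 with the slide as a block. Genes with probes in opposite directions numbered 2 with the specks left in, 25 with processed signals and 1 with scaling, against 6.

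Among genes printed, Acp1 turned to 0.45 with processed signals and Mt1 to 0.28 in the series matrix. With the processing described above, the dimmer probes of Acp1 differed by 0.10 and 0.39, and that of Mt1 by 0.15. Whether another probe stood for Acp1 or Mt1 under these alternatives was not tested, so the turns are not ascribed to the signal processing. With the mean of a gene's probes, Car5b gave -0.022, Kctd20 0.090, Pacc1 -0.00034 and Tuba3a 0.050. Genes that had not passed changed sign too: Pde3b gave 0.14 with the slide block and Cnr1 0.0092 with the specks left in and 0.075 with median centring. On slide 1 of the 3 with both groups, Hcar1 differed by 0.36.

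The replicate number was not taken to pair the samples: 9 of 12 pairs of same-numbered HF-DR and HF-AL arrays correlated above 0.1 (range -0.15 to 0.40, median 0.21, against 0.03 for arrays of different number), and 2 of 12 HF-DR arrays correlated best with their own number. With the replicate block, 4735 genes rose, 5921 fell and 920 differed at least 2-fold, and no gene printed changed its call. The signal over background limits dim genes, whose differences normexp compresses.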
